A study of Homo sapiens with 12 samples.

Results

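Caveolae and membrane rafts are cholesterol-rich domains of the plasma membrane, and the genes described here encode the proteins that shape them: the caveolins CAV1 and CAV2, the cavins CAVIN1, CAVIN2 and CAVIN3, the caveolar neck ATPase EHD2, and the flotillins FLOT1 and FLOT2. They were chosen by name, from what their proteins are known to do, though with earlier results of these data known. The 8 symbols matched 8 of the 58735 Ensembl genes in the counts table. RNA was sequenced from HEC-1A, a line from a human endometrial adenocarcinoma with epithelial character, and from T-HESC, endometrial stromal fibroblasts immortalised with telomerase. Each line was cultured for 32 h with AG-205 at 15 µM or with its vehicle DMSO, and each of the 4 groups had 3 libraries, from 3 independent culture experiments per the study's methods. AG-205 is a small molecule that has been used as a ligand of the progesterone receptor membrane component PGRMC1. No gene was deleted or silenced in these 12 libraries. Each tissue compartment was represented by 1 established line, so a comparison of T-HESC with HEC-1A compares lines and not stroma with epithelium.

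In a caveola, caveolin oligomers insert into the inner leaflet of the membrane and bind cholesterol, a cavin coat assembles around the bulb, and EHD2 holds its neck at the cell surface. CAV1 and CAVIN1 are both needed for caveolae in cells other than muscle, CAV2 joins CAV1 in mixed oligomers, CAVIN2 and CAVIN3 modulate the coat, and EHD2 slows the detachment of caveolae from the surface. The flotillins form a different scaffold: FLOT1 and FLOT2 belong to the stomatin/prohibitin (SPFH) family, assemble with each other on the cytoplasmic face of rafts, and occur in cells with few caveolae as well. Caveolins are known to be abundant in fibroblasts and endothelial cells.

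Total counts per library ranged from 7168542 to 15178276. The lines carried the markers of their labels: the summed level of 10 stromal markers was 18458 to 37764 CPM in T-HESC against 20.5 to 27.5 CPM in HEC-1A, where 1 or 2 of them were at 0 in each library, and that of 10 epithelial markers was 1622 to 2457 CPM in HEC-1A against 222 to 389 CPM in T-HESC. CPM here are counts scaled to library size, on the TMM scale of all 12 libraries. With DMSO, 9 of the 10 epithelial markers were lower in T-HESC, among them KRT18 (357 CPM in HEC-1A, 155 CPM in T-HESC). The other, KRT19, did not separate the lines (100 CPM in HEC-1A, 106 CPM in T-HESC). The 7 endothelial markers together reached at most 0.411 CPM in HEC-1A. In T-HESC they reached 38.3 to 90.4 CPM, of which TEK alone made up 37.7 to 89.4 CPM and VWF at most 1.05 CPM, while PECAM1, CDH5, KDR, CLDN5 and EMCN had 0 to 2 counts in each library. The T-HESC library AG-205 replicate 1 stood apart from the other 5 of its line (score of 95.8 on the first principal component, against -40.3 to 2.41), and its stromal marker sum, 18458 CPM, was the lowest of the line. The fold changes of the 8 genes for AG-205 in T-HESC are therefore given with and without it. The stromal markers did not move together in that library. VIM (8091 CPM) and ZEB1 (127 CPM) were the highest of the line. COL1A1 (1435 CPM), COL1A2, COL3A1, COL6A3, PDGFRB, FN1 and FAP were the lowest, and POSTN was neither. Replicates of T-HESC varied more (biological coefficient of variation 33.6%) than those of HEC-1A (10.1%). In bulk RNA, fewer cells that express a gene and less of its RNA per cell cannot be told apart.

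The stretches of 250 bases before the most upstream RefSeq start (GRCh38.p14) are shown for the adjacent caveolin genes, for EHD2, which passed the test for AG-205 in HEC-1A, and for the flotillin pair, whose levels followed each other over the libraries within each line, though not between the lines. Capitals mark the GC box GGGCGG, read on either strand. The windows lie at chr7:116524759-116525008 (CAV1, plus strand), chr7:116499488-116499737 (CAV2, plus strand), chr19:47713172-47713421 (EHD2, plus strand), chr6:30742688-30742937 (FLOT1, minus strand) and chr17:28897734-28897983 (FLOT2, minus strand), and each is printed 5′ to 3′ along its gene.
CAV1: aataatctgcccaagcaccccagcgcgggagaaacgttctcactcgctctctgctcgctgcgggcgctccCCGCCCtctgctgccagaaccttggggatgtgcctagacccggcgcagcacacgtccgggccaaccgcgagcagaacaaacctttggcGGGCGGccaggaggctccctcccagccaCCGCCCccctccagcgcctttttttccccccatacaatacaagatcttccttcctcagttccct
CAV2: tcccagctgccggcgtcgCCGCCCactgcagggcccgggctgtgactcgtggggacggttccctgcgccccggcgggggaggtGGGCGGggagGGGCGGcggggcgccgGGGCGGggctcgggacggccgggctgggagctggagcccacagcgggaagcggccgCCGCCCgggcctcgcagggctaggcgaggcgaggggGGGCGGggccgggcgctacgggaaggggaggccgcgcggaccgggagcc
EHD2: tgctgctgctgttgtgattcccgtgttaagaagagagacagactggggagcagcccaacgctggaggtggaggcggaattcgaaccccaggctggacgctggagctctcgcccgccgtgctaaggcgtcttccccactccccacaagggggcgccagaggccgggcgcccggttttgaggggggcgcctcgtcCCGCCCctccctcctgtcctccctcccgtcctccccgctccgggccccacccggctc
FLOT1: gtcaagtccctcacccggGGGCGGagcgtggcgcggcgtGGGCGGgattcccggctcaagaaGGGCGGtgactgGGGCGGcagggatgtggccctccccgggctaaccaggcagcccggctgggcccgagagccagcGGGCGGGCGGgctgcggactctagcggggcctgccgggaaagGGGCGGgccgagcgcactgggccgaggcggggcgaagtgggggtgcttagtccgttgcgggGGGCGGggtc
FLOT2: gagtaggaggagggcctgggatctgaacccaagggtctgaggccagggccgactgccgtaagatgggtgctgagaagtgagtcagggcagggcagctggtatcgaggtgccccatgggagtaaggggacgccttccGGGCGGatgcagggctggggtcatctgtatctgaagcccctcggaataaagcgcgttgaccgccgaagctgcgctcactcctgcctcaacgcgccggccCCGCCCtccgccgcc
RefSeq windows were matched for 6 of the 8 genes, and CAVIN1 and CAVIN3 had no entry. GC boxes numbered 8 in the window of FLOT1, 6 in that of CAV2, 3 in that of CAV1, 2 in that of FLOT2 and 1 in that of EHD2, and overlapping matches were counted. Over all 35116 such windows, 42.6% held at least 1 GC box. The CAVIN2 window, at chr2:191847089-191847338 on the minus strand, held none, and held 1 match to GGAATG, the core recognised by TEAD factors, which 11.9% of all windows hold. The letters CCAAT (32% of all windows) and TCACNCCAC, a sterol regulatory element core (0.883%), were in none of these 6 windows on either strand. A match is a description of the letters and not of a bound site.

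With DMSO alone, 7 of the 8 genes were higher and 1, FLOT2, was lower in T-HESC than in HEC-1A (edgeR's quasi-likelihood test, with limits of 0.05 on the adjusted p and of 1, in either direction, on the log2 fold change). Of 14789 genes tested, 22.3% were higher and 22.3% were lower by the same rule. The caveolar genes formed the larger contrasts, with CAVIN1 and CAVIN3, then EHD2 and CAV1, furthest above HEC-1A. The order of CAVIN1 and CAVIN3 was not settled, since CAVIN3 had 2 counts in the HEC-1A libraries. The median log2 fold change was 4.42 over the 8 genes and -0.015 over all genes tested. The groups of the lines did not overlap for any of the 8, a pattern shown by 76.6% of all genes tested in this comparison.

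**Figure D1:**
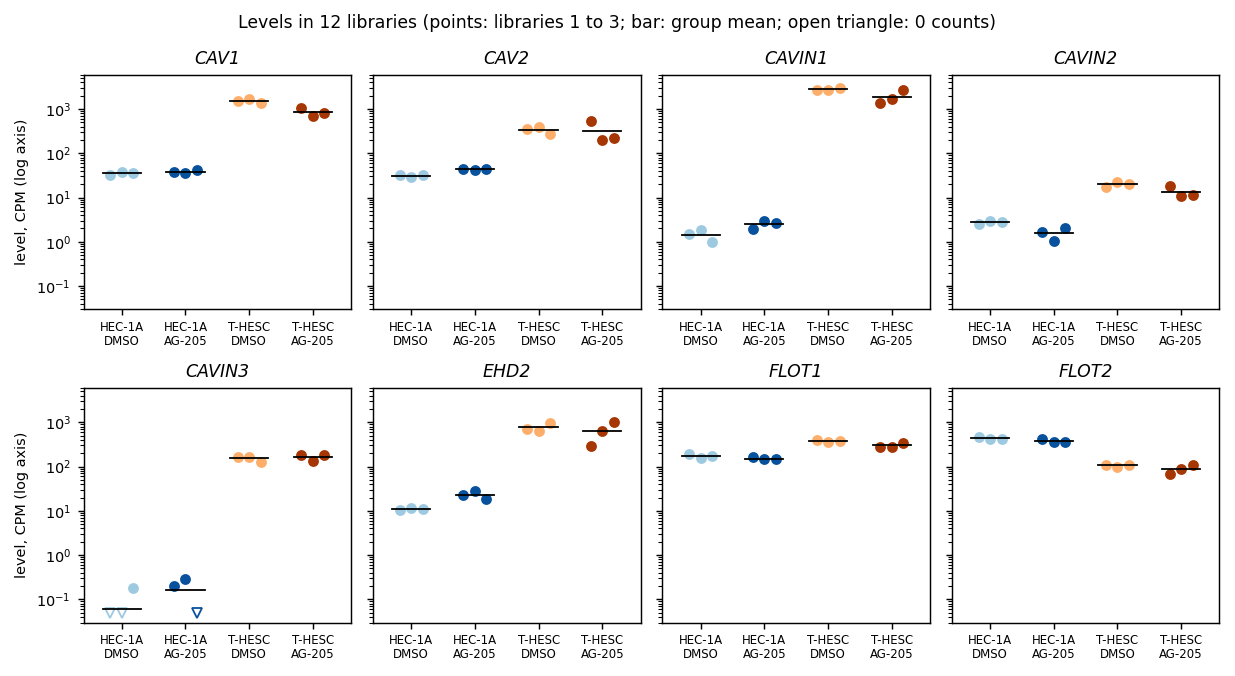
Level of each gene in the 12 libraries, as CPM on a log axis, with a bar at the mean of the 3 libraries of a group and an open triangle where a library had 0 counts. CAV1, CAV2, the cavins and EHD2 sit higher in T-HESC than in HEC-1A in every library, FLOT1 by a smaller margin, and FLOT2 sits lower (435 against 106 CPM with DMSO).

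CAV1 (ENSG00000105974, chr7:116524994-116561179, plus strand, GRCh38) was at 32.6, 37.4 and 35.6 CPM in HEC-1A with DMSO and at 1480, 1661 and 1377 CPM in T-HESC with DMSO. The means were 35.2 ± 2.43 and 1506 ± 144 CPM (SD, n = 3). On the log2 scale CAV1 was 5.41 higher in T-HESC (SE 0.13, edgeR's adjusted p = 8.02e-09). All T-HESC libraries lay far above all HEC-1A libraries. CAV2 (ENSG00000105971, chr7:116287380-116508541, plus strand), the neighbour of CAV1, was at 32.6, 29.7 and 32.0 CPM in HEC-1A and at 356, 393 and 272 CPM in T-HESC, and was 3.42 higher on the log2 scale (SE 0.15, edgeR's adjusted p = 1.5e-07). Both caveolins were thus detected in HEC-1A, with 356 to 469 counts per DMSO library.

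The cavins had few counts in HEC-1A. CAVIN1 (ENSG00000177469, chr17:42402449-42423256, minus strand), the coat protein that caveolae require, had 18, 23 and 11 counts in the HEC-1A libraries with DMSO and 35557, 31881 and 29779 counts in those of T-HESC. These were 1.43 ± 0.425 CPM against 2764 ± 182 CPM, or 10.88 on the log2 scale (SE 0.21, edgeR's adjusted p = 4.03e-09). CAVIN3 (ENSG00000170955, chr11:6318946-6320532, minus strand), also known as PRKCDBP, had 0, 0 and 2 counts in HEC-1A and 2162, 2018 and 1285 counts in T-HESC. With 2 counts in the 3 HEC-1A libraries together the fold is uncertain: the ratio of pooled counts, scaled to the library sizes after TMM, was 2770 (95% exact binomial interval 766.4 to 2.288e+04, which covers counting error only). A count of 0 allows up to 3 counts at this depth. CAVIN2 (ENSG00000168497, chr2:191834310-191847088, minus strand), a binder of phosphatidylserine also called SDPR, was low in both lines, at 2.55, 2.95 and 2.78 CPM in HEC-1A and 16.9, 22.5 and 20.5 CPM in T-HESC (log2 fold change 2.84, SE 0.18, edgeR's adjusted p = 1.33e-06). Long noncoding genes on the opposite strand cover 7.79% of the exons of CAVIN2 and 36.67% of those of CAVIN3, and had at most 2 and 6 counts in a library.

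EHD2 (ENSG00000024422, chr19:47713422-47743134, plus strand) was at 10.7, 11.6 and 11.0 CPM in HEC-1A and at 687, 652 and 953 CPM in T-HESC, or 6.09 higher on the log2 scale (SE 0.19, edgeR's adjusted p = 2.08e-08). The flotillins took opposite directions between the lines. FLOT1 (ENSG00000137312, chr6:30727709-30742732, minus strand) was at 188, 160 and 174 CPM in HEC-1A and 390, 355 and 373 CPM in T-HESC (log2 fold change 1.09, SE 0.09, edgeR's adjusted p = 1.09e-05). FLOT2 (ENSG00000132589, chr17:28879335-28897733, minus strand) was at 459, 421 and 424 CPM in HEC-1A and 111, 97.2 and 110 CPM in T-HESC, and fell by 2.04 on the log2 scale (SE 0.10, edgeR's adjusted p = 2.3e-07). Upper-quartile scaling shifted all genes by a median of -0.15 in this comparison, and the log2 fold change of FLOT1 was then 0.93, below the limit of 1.

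Compared per length of the annotated exons, as TPM, the order of the 8 genes differed between the lines, with the flotillins first in HEC-1A and CAVIN1 and CAV1 first in T-HESC. In HEC-1A with DMSO, FLOT2 was at 525 ± 5.45 TPM and FLOT1 at 223 ± 10.1 TPM, followed by CAV1 at 37.3, CAV2 at 19.6, EHD2 at 11.9, CAVIN2 at 3.71, CAVIN1 at 1.65 and CAVIN3 at 0.16 TPM. In T-HESC with DMSO, CAVIN1 was at 2760 ± 228 TPM and CAV1 at 1386 ± 120 TPM, followed by EHD2 at 710, FLOT1 at 416, CAVIN3 at 349, CAV2 at 184, FLOT2 at 112 and CAVIN2 at 23.3 TPM. No neighbours in either order overlapped over their 3 libraries. The order rests on the length used: with the longest transcript in place of all annotated exons, EHD2 and FLOT1 overlapped in T-HESC, as did CAVIN3 and CAV2, whose TPM became 295 with the shorter length. With AG-205 the order of the first 5 genes in HEC-1A was the same, with CAV2 (27.0 TPM) and EHD2 (24.6 TPM) overlapping. In T-HESC with AG-205, CAV1 (709 TPM), EHD2 (565 TPM) and CAVIN3 (349 TPM) each overlapped the next in the order, with FLOT1 (311 TPM) after CAVIN3, and CAV2 (150 TPM) overlapped FLOT2 (86.6 TPM).

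**Figure D2:**
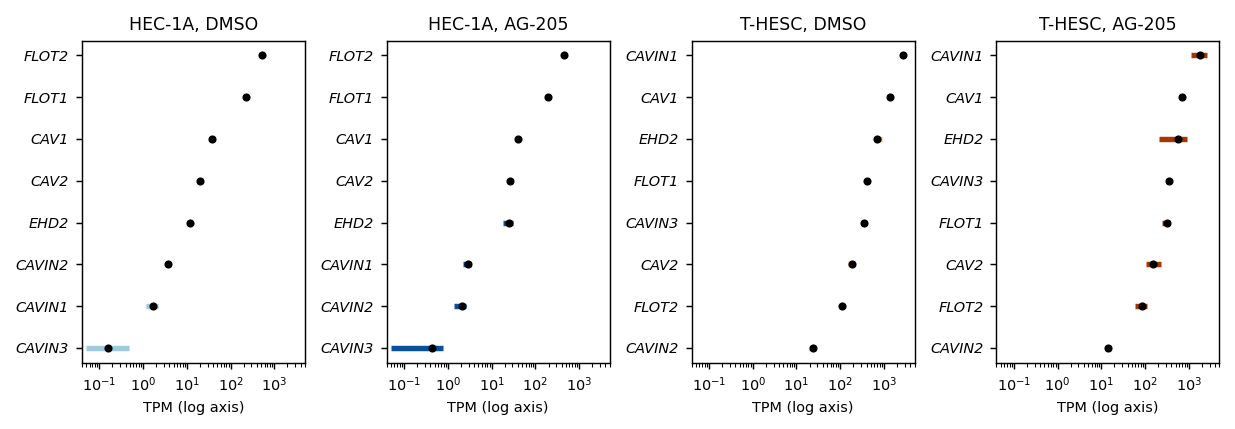
Level per length of annotated exons (TPM, log axis) in each group, ordered by mean, with a dot at the mean and a bar from the lowest to the highest of 3 libraries, cut off near the left edge where the lowest library is at 0. FLOT2 and FLOT1 lead in HEC-1A (525 and 223 TPM with DMSO), and CAVIN1 and CAV1 lead in T-HESC (2760 and 1386 TPM with DMSO).

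The next question was whether exposure to AG-205 went with a change in these genes. In HEC-1A, EHD2 rose with AG-205 so that 1 of the 7 genes tested passed both the adjusted p and the fold limit, against 2.78% of the 14122 genes tested (2.58% higher). CAV2 rose as well at the same adjusted p but by less than the fold limit, so that 2 of 7 passed with no fold limit, against 11.6% of all genes. CAV1 and both flotillins did not pass the test. CAVIN3, with 3, 4 and 0 counts with AG-205, was too low to be tested.

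EHD2 was at 10.7, 11.6 and 11.0 CPM with DMSO and at 23.0, 28.4 and 18.2 CPM with AG-205 in HEC-1A. Its means were 11.1 ± 0.477 and 23.2 ± 5.12 CPM, or 1.07 on the log2 scale (SE 0.15, edgeR's adjusted p = 0.000812). Each AG-205 library was above each DMSO library. Without AG-205 replicate 2 the log2 fold change was 0.91 (edgeR's adjusted p = 0.00178), below the fold limit, and in a fit of all 12 libraries, which share the wider spread of T-HESC, it was 1.06 (edgeR's adjusted p = 0.352). CAV2 was at 32.6, 29.7 and 32.0 CPM with DMSO and at 44.8, 42.3 and 44.4 CPM with AG-205, or 0.48 higher on the log2 scale (SE 0.10, edgeR's adjusted p = 0.00664), also with no overlap. By edgeR its adjusted p was 0.0601 without DMSO replicate 2 and 0.817 in the fit of all 12 libraries. CAV1, its partner in oligomers, was at 38.7, 36.4 and 41.0 CPM with AG-205, and the 95% interval of its log2 fold change (0.14) ran from -0.09 to 0.36.

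The values of the 2 cavins tested in HEC-1A lay in opposite directions, and neither passed the test. CAVIN1 had 29, 39 and 22 counts with AG-205, or 2.50 ± 0.466 CPM against 1.43 with DMSO (log2 fold change 0.77, SE 0.29, edgeR's adjusted p = 0.106). CAVIN2 had 25, 14 and 17 counts with AG-205 against 31, 37 and 31 with DMSO (log2 fold change -0.83, SE 0.27, edgeR's adjusted p = 0.0703). Groups did not overlap for 3 of the 7 genes that were higher (CAV2, CAVIN1 and EHD2) and 1 that was lower (CAVIN2), against 16.4% and 15% of all genes tested, or 31.4% in either direction. CAVIN2 passed both limits with library quality weights (log2 fold change -1.03, limma's adjusted p = 0.00795) and without AG-205 replicate 3 (-1.002, edgeR's adjusted p = 0.0108), the library with the fewest counts. FLOT1 was at 161, 146 and 150 CPM and FLOT2 at 426, 367 and 354 CPM with AG-205, with log2 fold changes of -0.19 and -0.18 (edgeR's adjusted p = 0.219 and 0.262), and their groups overlapped. Of the 10 epithelial markers, 5 also rose with AG-205 in HEC-1A at an adjusted p under 0.05 by edgeR, against 7.35% of all genes. These were KRT8, KRT19, CLDN3, CLDN4 and CLDN7. EPCAM, CDH1, KRT18, ESRP1 and GRHL2 did not pass, with log2 fold changes from -0.13 to 0.15. The 10 epithelial markers summed to 2414 to 2457 CPM against 1622 to 1788 CPM with DMSO, and the 10 stromal markers to 23.4 to 25.9 against 20.5 to 27.5 CPM. The part of the epithelial genes' change in these results was not tested.

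In T-HESC, none of the 8 genes passed the test for AG-205 with edgeR, where 0.08% of 13753 genes did. At an unadjusted p under 0.05 there was 1, CAV1, against 5.38% of all genes. DESeq2 called 0 (0.762% of all genes), edgeR without AG-205 replicate 1 called 0 (0.511%), and limma with library quality weights called 1, again CAV1 (2.42%). CAV1 was at 1480, 1661 and 1377 CPM with DMSO and at 1071, 683 and 795 CPM with AG-205, so that each AG-205 library was below each DMSO library. The log2 fold change was -0.84 (SE 0.27, edgeR's adjusted p = 0.638). Without AG-205 replicate 1 it was -1.05 (edgeR's adjusted p = 0.0949), and with quality weights, which gave that library a weight of 0.159, it was -1.15 (limma's adjusted p = 0.00865).

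The remaining T-HESC values did not pass, with an adjusted p of 0.993 for each by edgeR. CAV2 was at 523, 198 and 221 CPM with AG-205 against 356, 393 and 272 with DMSO, with replicate 1 above all DMSO libraries and the other 2 below them. Its log2 fold change was -0.12 with all libraries and -0.73 without replicate 1. CAVIN1 was at 1364, 1646 and 2673 CPM with AG-205 against 2678, 2642 and 2974 with DMSO (log2 fold change -0.56, SE 0.31, and -0.38 without replicate 1). EHD2 was at 284, 637 and 1000 CPM with AG-205 against 687, 652 and 953 with DMSO, and its log2 fold change of -0.27 became 0.074 without replicate 1. For these 3 genes the range of the AG-205 libraries exceeded the distance between the group means.

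CAVIN2 was at 18.1, 10.9 and 11.2 CPM with AG-205 in T-HESC (log2 fold change -0.59, SE 0.29, and -0.88 without replicate 1). CAVIN3 was at 186, 133 and 182 CPM with AG-205 against 163, 167 and 128 CPM with DMSO (0.11, SE 0.24, and 0.013 without replicate 1). FLOT1 was at 273, 281 and 347 CPM, just below its DMSO range of 355 to 390 CPM (log2 fold change -0.32, SE 0.22, and -0.27 without replicate 1). FLOT2 was at 68.0, 89.8 and 107 CPM with AG-205 (log2 fold change -0.28, SE 0.23, and -0.14 without replicate 1). Groups did not overlap for 2 of the 8 genes, CAV1 and FLOT1, both lower, as for 4.81% of all genes tested (11% in either direction). In AG-205 replicate 1, CAV1, CAV2, CAVIN2 and CAVIN3 were the highest and CAVIN1, EHD2, FLOT1 and FLOT2 the lowest of the 3 libraries with AG-205. The stromal marker sum was 18458 CPM there, 25814 and 34525 CPM in the other AG-205 libraries, and 29316 to 37764 CPM with DMSO. VIM and ZEB1 went against the sum and were the highest of the line there. The part of the stromal markers in these levels was not tested.

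**Figure D3:**
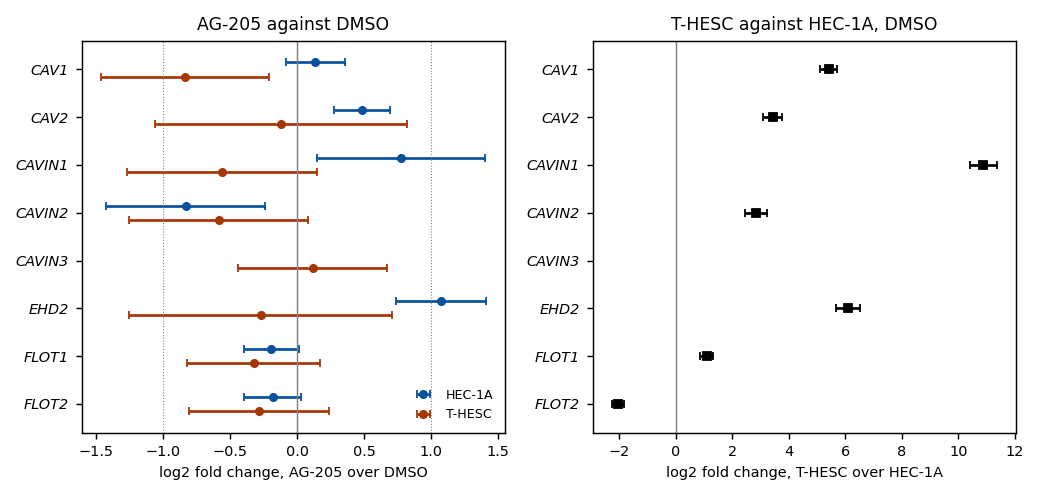
Log2 fold changes with 95% intervals from edgeR, for AG-205 against DMSO in each line (left, dotted lines at the fold limit) and for T-HESC against HEC-1A with DMSO (right). EHD2 in HEC-1A (1.07) lies past the fold limit; CAVIN3 is not drawn in HEC-1A, where it was not tested, nor in the right panel, where HEC-1A had 2 counts.

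**Figure D4:**
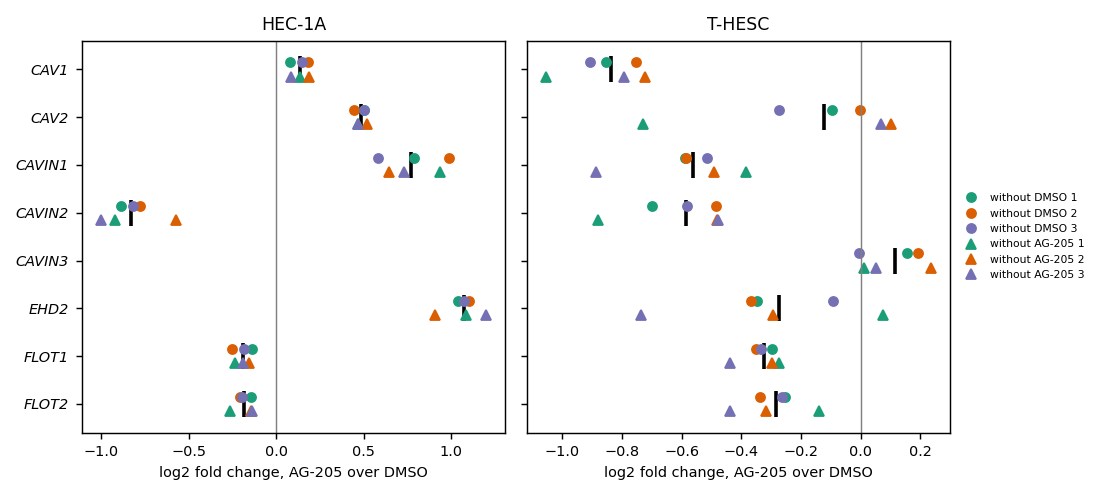
Log2 fold change of AG-205 against DMSO when each library is left out in turn (circles for DMSO, triangles for AG-205 libraries), with a black bar at the value from all 6 libraries of the line. In HEC-1A the sign held for all 7 genes tested, whereas in T-HESC CAV2 (-0.73 to 0.10), CAVIN3 (-0.006 to 0.24) and EHD2 (-0.74 to 0.074) crossed 0.

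The difference between the lines in the response to AG-205 (T-HESC minus HEC-1A) was tested directly over 16132 genes. That fit shared its estimate of spread between the lines (biological coefficient of variation 24.8%, against 10.1% in HEC-1A and 33.6% in T-HESC). With edgeR, 0 of the 8 genes passed, against 0.174% of all genes, and 3 had an unadjusted p under 0.05 (6.35% of all genes). For CAV1 the difference was -0.96 (SE 0.26, edgeR's adjusted p = 0.336). For CAVIN1 it was -1.33 (SE 0.41, edgeR's adjusted p = 0.491), and for EHD2 it was -1.32 (SE 0.50, edgeR's adjusted p = 0.641). In these 3 genes, and in CAV2, the log2 fold change was below 0 in T-HESC and above 0 in HEC-1A. The T-HESC sign did not hold for EHD2 and CAV2, which reached 0.074 and 0.10 with single libraries left out. CAV2 differed by -0.60 (SE 0.43), CAVIN2 by 0.24, FLOT1 by -0.12 and FLOT2 by -0.08, and the value of CAVIN3 rests on 0 to 4 counts per HEC-1A library. The count depended on the setting and on T-HESC AG-205 replicate 1: without that library 2 of 8 passed (0.491% of all genes), CAV1 (-1.16, edgeR's adjusted p = 0.0131) and CAV2 (-1.18, edgeR's adjusted p = 0.0253), and with quality weights 4 of 8 passed (2.36% of all genes), these 2 with CAVIN1 and EHD2. DESeq2 called 0 at the fold limit (0.516% of all genes), with CAV1 at -0.97 (adjusted p = 0.0209).

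The ratio of CAV1 to CAV2 counts within a library does not depend on scaling between libraries. It was chosen after the values were seen. In HEC-1A it was 1.00, 1.26 and 1.11 with DMSO and 0.863, 0.860 and 0.922 with AG-205. In T-HESC it was 4.16, 4.23 and 5.07 with DMSO and 2.05, 3.45 and 3.60 with AG-205. In both lines all AG-205 libraries lay below all DMSO libraries, with means of 0.882 against 1.12 and of 3.03 against 4.48. The ratio bears on the balance of the caveolins and not on which of them changed. An exact permutation test gave p = 0.1 in each line, the smallest value that 3 against 3 libraries allow. Since the ratio was chosen for its values, no conclusion is drawn from that test. The ratio of FLOT2 to FLOT1 counts stayed within 2.37 to 2.65 in the HEC-1A libraries and within 0.249 to 0.320 in those of T-HESC, and its means with AG-205 and DMSO were 2.51 and 2.50 in HEC-1A and 0.292 and 0.285 in T-HESC.

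**Figure D5:**
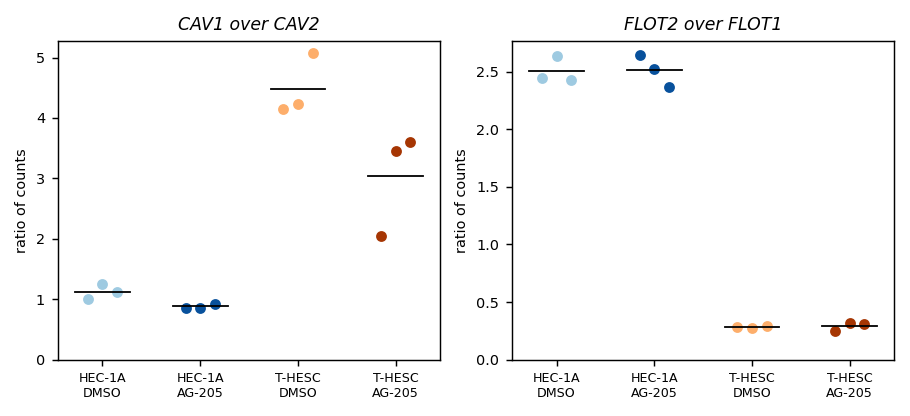
Ratio of counts of CAV1 over CAV2 (left) and FLOT2 over FLOT1 (right) in each library, with a bar at the group mean and both axes starting at 0. CAV1 over CAV2 has means of 1.12 with DMSO and 0.882 with AG-205 in HEC-1A and of 4.48 and 3.03 in T-HESC, and FLOT2 over FLOT1 runs from 2.37 to 2.65 in the HEC-1A libraries and from 0.249 to 0.320 in those of T-HESC.

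Genes that work beside these scaffolds were taken as 5 lists by function. In HEC-1A with AG-205, counted at an adjusted p under 0.05 by edgeR with no fold limit (7.35% of all genes higher and 4.28% lower), 0 of 12 tested accessory genes of caveolae rose and 2 fell. These were the EHD2 paralogs EHD1 (-0.49, SE 0.09, adjusted p = 0.00424) and EHD4 (-0.38, SE 0.10, adjusted p = 0.0235), ATPases of endocytic recycling, which moved against EHD2. Of 7 tested relatives of the flotillins in the SPFH family, 0 rose and 2 fell, ERLIN1 (-0.39, SE 0.09, adjusted p = 0.0138) and ERLIN2 (-0.37, SE 0.09, adjusted p = 0.0209), cholesterol-binding scaffolds of the endoplasmic reticulum. Of 10 raft adaptors, LAT2 rose (0.64, SE 0.16, adjusted p = 0.0256) and 0 fell. With DESeq2 (5.55% of all genes higher and 5.01% lower) the counts of the first 2 lists were equal, and 0 raft adaptors passed.

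Among 9 tested proteins with a GPI anchor, typical cargo of rafts, 3 rose and 2 fell in HEC-1A. The urokinase receptor PLAUR rose from 1.13 ± 0.348 to 3.73 ± 0.397 CPM (log2 fold change 1.73, SE 0.27, edgeR's adjusted p = 0.00128), and the complement regulators CD55 (0.37) and CD59 (0.41) rose by less. The glypican GPC4 (-0.56) and the ectonucleotidase NT5E (-0.32) fell. DESeq2 gave 2 higher, without CD55, and 2 lower. Of 13 tested genes of sphingolipid synthesis, which supply the other lipid of rafts, 4 rose and 0 fell. UGCG, glucosylceramide synthase, rose from 45.7 ± 2.31 to 92.4 ± 9.54 CPM (1.02, SE 0.10, edgeR's adjusted p = 3.89e-05), the ceramide transporter CERT1 by 0.77 (SE 0.13) and SPTLC2, a subunit of serine palmitoyltransferase, by 0.54 (SE 0.10). DESeq2 gave 3 higher, without KDSR, and 0 past the fold limit, where edgeR gave 1, UGCG. The median log2 fold changes of the lists were -0.07 for the accessory genes, -0.24 for the SPFH family, -0.10 for the adaptors, -0.02 for GPI-anchored proteins and 0.04 for sphingolipid synthesis, against 0.006 over all genes.

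In T-HESC with AG-205, 0 genes of the 5 lists passed with edgeR, where 0.08% of all genes did with no fold limit. Unadjusted p under 0.05 were found for 1 of 12 accessory genes, 0 of 7 SPFH genes, 0 of 10 adaptors, 1 of 11 GPI-anchored proteins and 2 of 11 sphingolipid genes, against 5.38% of all genes. Without AG-205 replicate 1, edgeR again gave 0 in each list. DESeq2 called 1 gene of the lists, KDSR of sphingolipid synthesis, and with quality weights (3.27% of all genes with no fold limit) KDSR, CERT1 and PLAUR passed. KDSR was named after its value was seen. PLAUR was at 156 ± 26.8 CPM with DMSO and 268 ± 19.9 CPM with AG-205, and UGCG at 114 ± 17.2 and 121 ± 18.6 CPM.

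Between the lines with DMSO, the lists around the caveolar genes were mixed, except that most GPI-anchored proteins were higher in T-HESC. By the rule with the fold limit, 2 of 12 accessory genes were higher and 5 lower in T-HESC, with a median of -0.62, where 22.3% of all genes were higher and 22.3% lower. PACSIN3, an F-BAR protein of the caveolar neck region, was higher (1.58, SE 0.17, edgeR's adjusted p = 3.52e-05), and endothelial nitric oxide synthase NOS3 (-4.09), the kinase SRC (-1.61) and dynamin 2 (DNM2, -1.15) were lower. In the SPFH family 2 of 7 were higher and 1 lower. Stomatin, STOM, was at 5.11 ± 0.624 CPM in HEC-1A and 224 ± 24.9 CPM in T-HESC (5.44, SE 0.15, edgeR's adjusted p = 1.21e-08), while the mitochondrial prohibitin PHB1 was lower (-1.88). Of 11 raft adaptors 4 were higher, among them the kinase FYN (3.43), and 3 lower, among them MAL2 (-11.04), an apical sorting protein of epithelia at 199 ± 3.70 CPM in HEC-1A. MAL2 had 1, 2 and 0 counts in the T-HESC libraries with DMSO, so the size of its fold is uncertain. Of 12 GPI-anchored proteins 10 were higher and 1, GPC4, was lower (47.0 ± 5.04 CPM in HEC-1A and 0 counts in each T-HESC library with DMSO). The median log2 fold change of this list was 3.72, near the 4.42 of the 8 scaffold genes. Of 12 sphingolipid genes 5 were higher and 2 lower.

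The protein-coding genes whose levels followed the scaffold genes most closely were ranked by Pearson's r of log2 CPM over the 12 libraries, after each line was centred on its own mean, as a description without a test. The libraries share their scaling and depth, and 6 of them share each line. For FLOT2 the closest were COG4 (0.98), AP1B1 (0.978), ASCC2 (0.974), EPN1 (0.964) and BTBD2 (0.962). For FLOT1 they were CDC42EP1 (0.931), SPECC1L (0.93), DDX23 (0.924), SRRT (0.921) and RNF126 (0.92), and FLOT1 and FLOT2 had r = 0.882 with each other. For CAV1 they were KRT18 (0.95), ZNF681 (0.938), F3 (0.938), DYNLT5 (0.932) and PTPRC (0.931), of which ZNF681, DYNLT5 and PTPRC had 0 counts in HEC-1A and means of at most 2.43 CPM in T-HESC. In T-HESC the mean of KRT18 was 155 ± 39.4 CPM with DMSO and 56.0 ± 38.5 CPM with AG-205, and that of F3 was 190 and 71.8 CPM. KRT18 did not pass there with all libraries (log2 fold change -1.47, SE 0.49, edgeR's adjusted p = 0.664). It did with quality weights and without AG-205 replicate 1. In HEC-1A its mean was 357 CPM with DMSO and 395 CPM with AG-205. For CAVIN1 they were PAPSS2 (0.93), GAL3ST4 (0.913), NIM1K (0.908), CCDC188 (0.887) and GALNT5 (0.884). These 5 had group means of at most 1.89 CPM in HEC-1A, and NIM1K had at most 0.787 CPM in any group. CAVIN1 and EHD2, the coat protein and the neck ATPase, had r = 0.816, or 0.744 without T-HESC AG-205 replicate 1, and CAV1 and CAV2 had 0.613, or 0.833 without it. Over the 12 libraries these were the highest values among the caveolins, cavins and EHD2. The other pairs ran from -0.592 (CAVIN2 and EHD2) to 0.549 (CAV1 and CAVIN2), with CAV1 and CAVIN1 at 0.415 and CAV1 and EHD2 at 0.067.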

How the data were processed

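PolyA RNA of 12 cultures was sequenced in pairs of reads. Per the study's methods and the submitters' processing notes, the authors used Trimmomatic 0.38 for trimming, HISAT2 2.1.0 for alignment to GRCh38 and featureCounts of Subread 2.0.0 with Ensembl genes, and deposited raw counts per gene. How counting treated strand and multimapping reads is not given in the sources used here. Columns were assigned by library name. No library copied another (chi-square per degree of freedom 1.79 to 207 between replicates).

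Counts were tested with edgeR 4.0.16 in R 4.3.3 (TMM, filterByExpr, quasi-likelihood test, Benjamini-Hochberg over all genes tested: 14122 in HEC-1A, 13753 in T-HESC, 14789 between the lines and 16132 for the difference of effects). A call required, as in the study's methods, an adjusted p below 0.05 with a log2 fold change past 1 in either direction. Each SE was derived from the F value. Precision is limited by 3 libraries per group and totals of 7168542 to 15178276 counts. TPM used GENCODE 44 exon lengths, and 528 genes without a length were left out of them. Promoter windows came from RefSeq (GRCh38.p14). The procedure was run on simulated counts, in which no library stood apart as 1 did in T-HESC, and the outcome is not given here. Figures used matplotlib 3.10.9 (Python 3.11.15).

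The 8 genes and all lists were chosen with earlier results of these data known. From each list at most 3 genes per direction, those of smallest p, were named by rule, and the 5 genes most like CAV1, CAVIN1, FLOT1 and FLOT2. Alternatives were DESeq2 1.42.0, RLE and upper-quartile scaling, no filter, a mean of at least 1 CPM, the replicate number as a block, quality weights (limma 3.58.1), no fold limit, a limit of 0.01 on the adjusted p, 1 fit to the 12 libraries together, and leaving out each library.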

Additional observations from a re-analysis of the deposited data

How the results depend on the processing

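Of 474 values of the 8 genes under the alternatives, 452 kept the direction and side of the limits, 10 gained a call, 3 lost it and 9 changed direction. The number of the 8 genes called in HEC-1A, 1, became 2 with no fold limit, 2 with quality weights and 0 in the fit of all 12 libraries, and ranged from 0 to 2 when single libraries were left out. In T-HESC the 0 became 1 with quality weights. Between the lines with DMSO it was 8 under each alternative except upper-quartile scaling, where it was 7. For the difference of effects the 0 became 1 without a filter on low counts (EHD2, -1.28, edgeR's adjusted p = 0.0331), 4 with quality weights, and ranged from 0 to 2 when single libraries were left out. The causes were not tested.

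Directions changed in the following results, none of them called. In T-HESC, CAVIN3 (0.11) was -0.20 with quality weights and -0.006 to 0.24 with single libraries left out, CAV2 (-0.12) was -0.73 to 0.10 and EHD2 (-0.27) was -0.74 to 0.074. For the difference of effects, CAVIN2 (0.24) was -0.027 to 0.42 and FLOT2 (-0.08) was -0.24 to 0.0735 with single libraries left out. Where a line was left with 2 libraries in a group, the spread was shared with the other group.

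Over all genes, 393 were called in HEC-1A (141 to 1643 under the alternatives that keep every library), 11 in T-HESC (0 to 333), 6593 between the lines (6149 to 10664) and 28 for the difference of effects (0 to 380), with 7 higher and 21 lower, or 4 and 23 with upper-quartile scaling. Deviations of same-numbered libraries from their group means had r of -0.055, 0.177 and -0.004 for HEC-1A, of 0.206, -0.425 and -0.026 for T-HESC, and of 0.084, -0.117 and 0.06 between the lines. With 3 libraries in a group, these values cannot settle whether the numbers pair the samples. With the replicate block 1, 0, 8 and 0 of the 8 genes were called, as without it, and 363, 9, 6594 and 0 genes in all. Depth limits CAVIN1, CAVIN2 and CAVIN3 in HEC-1A, with at most 39 counts per library.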
